A study of Mus musculus with 16 samples.

Results

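The immunity-related GTPases (IRG proteins) and the Mx proteins are large GTPases that interferons induce in most cell types. The members were the rows of the deposited table with the symbols Irgm1, Irgm2, Igtp, Iigp1, Mx1 and Mx2, each found once, so 6 of the 36722 genes of the table. They were measured in RNA of lumbar dorsal root ganglia (DRG, segments L3 to L5) of C57BL/6 mice, all of which had received 20 µl of 2% carrageenan in the paw 6 days before an intrathecal injection. A group of 6 libraries came from mice given 1 µg of the IL4-10 fusion protein (IL4-10 FP), a single molecule that joins both cytokines. Another 5 came from mice given 0.5 µg each of IL4 and IL10 as separate proteins (the combination), and 5 from mice given PBS (vehicle). Ganglia were taken 6 hours after that injection. Every group carried the inflamed paw, so there was no group without inflammation. Whether each sample is a separate mouse is not stated.

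IRG proteins act inside the cell. Iigp1 belongs to the effector IRG proteins, which gather on the vacuoles of parasites such as Toxoplasma and break them open. Irgm1, Irgm2 and Igtp (also known as Irgm3) are the regulatory IRG proteins, which sit on the cell's own membranes and keep the effectors inactive there. Mx proteins are relatives of dynamin that form rings and block virus replication: mouse Mx1 in the nucleus, against influenza virus, and Mx2 in the cytoplasm. Laboratory strains such as C57BL/6 carry defective Mx1 and Mx2 genes, so their mRNA does not stand for working antiviral protein there. IRG genes respond strongly to interferon-γ, in part through the transcription factor IRF1, and also to type I interferon. Mx genes respond to type I and type III interferon.

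RefSeq start-site sequence of GRCm38.p6 was at hand for 3 of the 6 members, and the 100 bases before each start are shown because they hold the interferon-response motifs of these genes. Capitals mark matches to 2 motifs, searched on both strands in the 250 bases before and the 50 after the start. One is the core of the interferon-stimulated response element (ISRE: GAAA, any 2 bases, GAAA), and the other is the core of the interferon-γ-activated site (GAS, TTCNNNGAA), which reads alike on both strands.
Irgm1, chr11:48871421-48871520, minus strand: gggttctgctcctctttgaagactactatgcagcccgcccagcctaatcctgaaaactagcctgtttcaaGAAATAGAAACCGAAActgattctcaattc
Igtp, chr11:58199456-58199555, plus strand: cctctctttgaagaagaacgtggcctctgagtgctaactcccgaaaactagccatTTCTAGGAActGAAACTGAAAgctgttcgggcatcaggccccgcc
Irgm2, chr11:58214877-58214976, plus strand: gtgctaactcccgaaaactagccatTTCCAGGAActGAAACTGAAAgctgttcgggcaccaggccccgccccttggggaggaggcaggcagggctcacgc
In Irgm1 there were 2 overlapping ISRE cores, from 30 to 21 and from 24 to 15 bases before the start, and no GAS core in the window. Igtp had a GAS core from 45 to 37 and an ISRE core from 34 to 25 bases before its start, and Irgm2 had the same pair from 75 to 67 and from 64 to 55. The RefSeq starts of Irgm1 and Irgm2 lie inside these genes as annotated by GENCODE, far inside for Irgm2. Their motif positions therefore hold for the RefSeq start only. The windows of Igtp and Irgm2 were near copies: 244 of 265 aligned bases (92.1%) were identical, with an unbroken shared run of 61 bases, whereas the longest run shared by Irgm1 with either was 11 bases. Among all 32851 start-site windows of the RefSeq table, 3.44% held the ISRE core, 8.30% the GAS core and 0.454% held both.

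**Figure D1:**
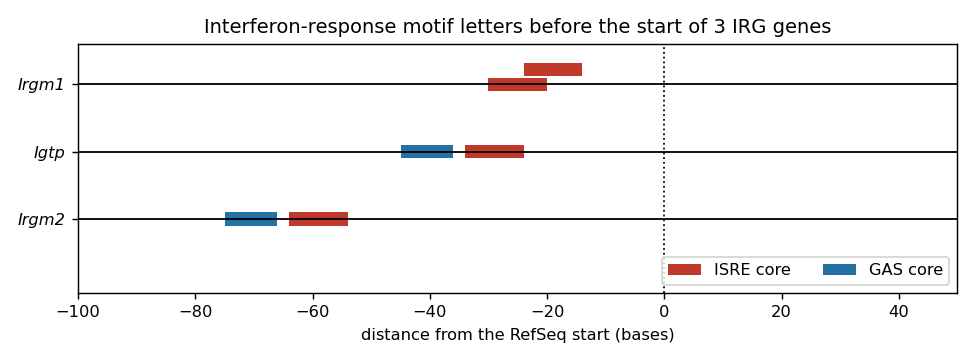
Positions of the ISRE core (red) and the GAS core (blue) relative to the RefSeq start (dotted line, in bases) of Irgm1, Igtp and Irgm2. Igtp and Irgm2 carry the same GAS and ISRE pair, 30 bases further upstream in Irgm2, and Irgm1 carries 2 overlapping ISRE cores.

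The members lie at 4 loci of GRCm38. Irgm1 (ENSMUSG00000046879) is on the minus strand of chromosome 11 from 48861968 to 48871683. Igtp (ENSMUSG00000078853) and Irgm2 (ENSMUSG00000069874) lie on the plus strand of the same chromosome, from 58199556 to 58207591 and from 58199618 to 58222782. These neighbours overlap in the annotation and share 162 exonic bases, which is 8.01% of the exonic bases of Igtp and 4.39% of those of Irgm2, so reads of the shared stretch cannot be assigned to either gene alone. Iigp1 (ENSMUSG00000054072) is on the plus strand of chromosome 18 from 60376027 to 60392634. Mx1 (ENSMUSG00000000386) and Mx2 (ENSMUSG00000023341) are neighbours on chromosome 16, Mx1 on the minus strand from 97447035 to 97462907 and Mx2 on the plus strand from 97535308 to 97560900. The deposited table gives Mx2 the biotype polymorphic pseudogene and Mx1 that of a protein-coding gene.

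Values are given as scaled values, whole numbers obtained by undoing the variance-stabilising transform of the deposited table. They are not read counts, the read depth of the libraries is unknown, and a gene that was not detected has the scaled value 1. Their sums, in units of 1000000, were 16.7 to 19.1 per fusion protein library, 18.2 to 20.9 per combination library and 17.2 to 18.7 per vehicle library. Differences are on the log2 scale of the deposited values, which compresses differences of low genes, with the SE and adjusted p of limma over the 13385 tested genes. All 6 members passed the filter on low values. The 20 sensory neuron markers were all tested too, with a summed scaled value of 295508 to 452519 in fusion protein, 311433 to 401665 in combination and 310620 to 392511 in vehicle libraries. In whole ganglia fewer cells that express a gene and less RNA per cell cannot be told apart.

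The sample labels also carry a number, 1 to 8 or 12 to 19, whose meaning is not stated. The 5 combination libraries all have numbers from 12 to 19, as do fusion protein replicates 5 and 6 and vehicle replicate 5. No combination library has a low number, so the label number and that treatment are largely confounded, and values within each number range are given beside the results.

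Divided by exonic length, Igtp was the most abundant member in every group and Mx1 the least. Igtp averaged 578 ± 264 scaled values per kilobase in fusion protein libraries (SD, n = 6), 285 ± 89.4 in combination libraries (n = 5) and 284 ± 99.3 in vehicle libraries (n = 5). Irgm2 followed with 225 ± 80.1, 129 ± 48.5 and 143 ± 57.5 per kilobase in the same groups. Irgm1 (130 ± 62.8, 53.9 ± 23.6 and 74.8 ± 29.3 per kilobase) and Iigp1 (148 ± 112, 38.6 ± 29.4 and 56.5 ± 32.0) differed from each other by less than the SD in each group. Mx2 had 55.5 ± 12.3, 25.3 ± 3.30 and 31.3 ± 13.4 per kilobase, and Mx1 had 52.0 ± 16.6, 7.93 ± 3.52 and 20.9 ± 19.2. The Mx levels per kilobase were within an SD of each other with the fusion protein and in vehicle, whereas in combination libraries Mx1 lay below Mx2 by more than either SD.

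**Figure D2:**
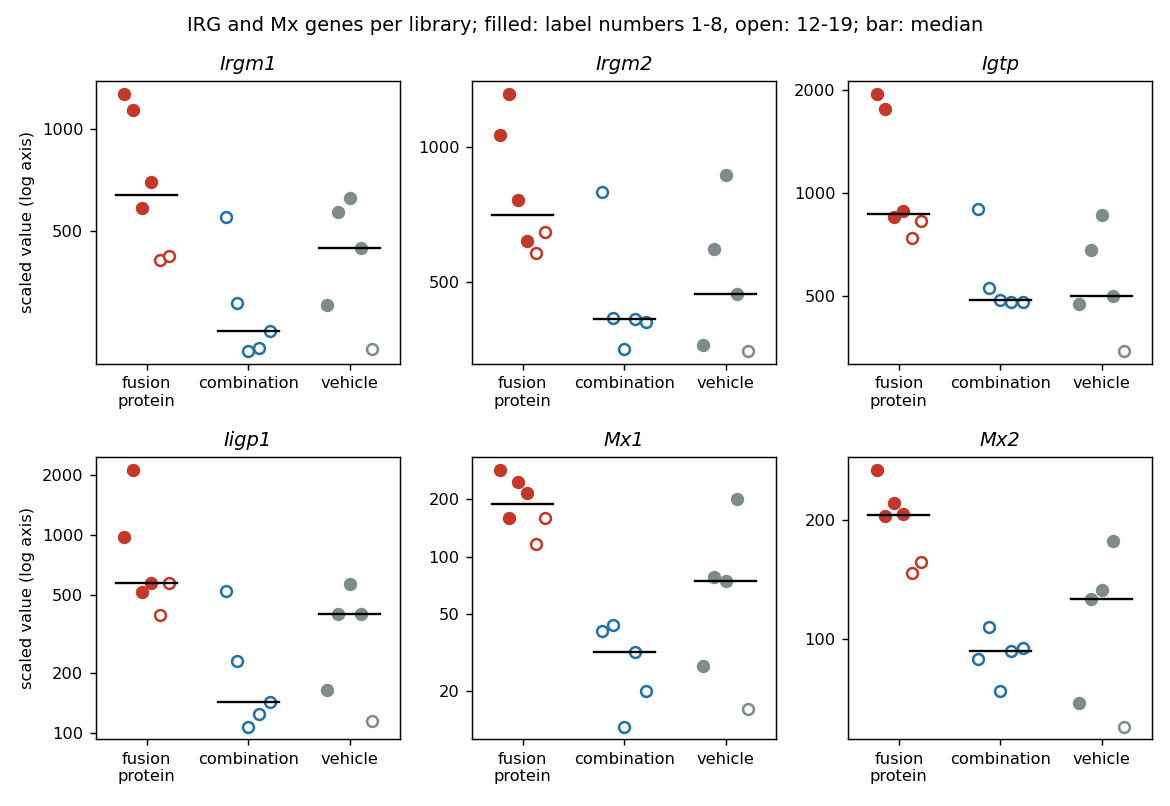
Scaled value (log axis) of each member in every fusion protein, combination and vehicle library, with the group median as a bar. Filled points have label numbers 1 to 8 and open points 12 to 19; for Mx1 and Mx2 all 6 fusion protein libraries lie above all 5 combination libraries, while the IRG genes of the groups overlap.

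The Mx genes were higher with the fusion protein than in either other group. Mx1 had a lowest scaled value of 117, a median of 187.5 and a highest of 285 in fusion protein libraries, against 41, 44, 13, 32 and 20 in combination replicates 1 to 5 and 27, 78, 75, 199 and 16 in vehicle replicates 1 to 5. Every fusion protein library was above every combination library, and 3 of 6 were above every vehicle library, among which replicate 4 stood highest. Mx1 rose with the fusion protein by 0.87 ± 0.23 against vehicle (SE, adjusted p = 0.0127, 95% interval 0.38 to 1.36) and by 1.31 ± 0.23 against the combination (adjusted p = 0.00344, 0.82 to 1.80). As ratios of mean scaled values these were 2.49 and 6.57. Without the compression of low values, on log2 of the scaled value plus 1, the differences of Mx1 were 1.75 and 2.74. In combination libraries Mx1 had a log2 mean of 6.94, below the filter level of 6.99, so 6.57 and 2.74 rest on low values.

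Mx2 followed the same order with a narrower spread. Its lowest, median and highest scaled values were 147, 206 and 268 in fusion protein libraries, against 89, 107, 74, 93 and 95 in combination replicates 1 to 5 and 69, 126, 133, 177 and 60 in vehicle replicates 1 to 5. Again all 6 fusion protein libraries were above all combination libraries, and 4 of 6 were above all vehicle libraries. The difference was 0.53 ± 0.13 against vehicle (adjusted p = 0.00612, ratio of mean scaled values 1.78) and 0.66 ± 0.13 against the combination (adjusted p = 0.00448, ratio 2.19). Both Mx genes kept these 4 calls in each of the 11 omissions of a library per comparison. Label numbers 12 to 19 alone, a subset chosen after seeing the data, hold 2 fusion protein, 5 combination and 1 vehicle libraries. There Mx1 differed from the combination by 1.01 and Mx2 by 0.41. With numbers 1 to 8 alone, 4 fusion protein against 4 vehicle libraries, Mx2 differed by 0.55 (adjusted p = 0.0239), and Mx1 by 0.85 without passing (adjusted p = 0.0653).

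Among the 4 IRG members, only Igtp, the regulatory IRG protein of the endoplasmic reticulum, passed against both other groups. It had a lowest scaled value of 739, a median of 871 and a highest of 1946 in fusion protein libraries, against 898, 529, 489, 483 and 483 in combination replicates 1 to 5 and 475, 682, 862, 501 and 347 in vehicle replicates 1 to 5. Fusion protein replicates 1 and 2, at 1946 and 1755, stood well above the other 4, which ran from 739 to 889 and overlapped the highest library of each other group. It rose by 0.85 ± 0.26 against vehicle (adjusted p = 0.0260) and by 0.83 ± 0.26 against the combination (adjusted p = 0.0288), ratios of 2.04 and 2.03. The call against vehicle ended without vehicle replicate 1, 4 or 5 (adjusted p = 0.0513, 0.0582 and 0.0652), and once GC and length trends were taken out (0.69, adjusted p = 0.0723). Within label numbers 1 to 8 Igtp differed from vehicle by 0.93 (adjusted p = 0.0678). Within 12 to 19, where 2 fusion protein libraries stand against 1 of vehicle, a subset chosen after seeing the data, it differed by 0.96 (adjusted p = 0.104).

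Iigp1, the effector, varied most among the 4 IRG members. Its lowest, median and highest scaled values were 394, 572.5 and 2134 with the fusion protein, against 519, 230, 108, 125 and 143 in combination replicates 1 to 5 and 166, 397, 567, 400 and 115 in vehicle replicates 1 to 5. The highest library, fusion protein replicate 2, had 5.42 times the level of the lowest of its own group. Against the combination Iigp1 rose by 1.46 ± 0.42 (adjusted p = 0.0215, ratio 3.82), and the call held in all 11 omissions of a library. Against vehicle the difference was 1.06 ± 0.42 and did not pass (adjusted p = 0.0768, 95% interval 0.16 to 1.95, ratio 2.61).

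Irgm1 and Irgm2, regulators that keep effectors off the Golgi and other membranes, passed only against the combination. Irgm1 had 413, 642 and 1268 as lowest, median and highest scaled values with the fusion protein, against 551, 309, 223, 228 and 255 in combination replicates 1 to 5 and 304, 570, 626, 446 and 226 in vehicle replicates 1 to 5. The difference was 0.97 ± 0.29 against the combination (adjusted p = 0.0251) and 0.62 ± 0.29 against vehicle (adjusted p = 0.135, 95% interval -0.0049 to 1.24). Irgm2 had 579, 703.5 and 1315 with the fusion protein, against 793, 414, 354, 413 and 406 in combination replicates 1 to 5 and 361, 590, 864, 469 and 350 in vehicle replicates 1 to 5. It differed by 0.67 ± 0.23 from the combination (adjusted p = 0.0446) and by 0.56 ± 0.23 from vehicle (adjusted p = 0.0911, 95% interval 0.06 to 1.06). For both genes fusion protein replicates 1 and 2 were the highest of all 16 libraries, and combination replicate 1 stood above the lowest fusion protein libraries.

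Across the 6 members, 3 rose with the fusion protein against vehicle and 0 fell, where 12% of all tested genes were called higher, 13.7% lower and 25.8% in either direction; 0 had groups without overlap, as 7.76% of tested genes did in the higher direction. The median log2 difference was 0.74 for the members and -0.02 for all tested genes. Against the combination 6 rose and 0 fell, where 7.35% of all tested genes were called higher, 22.2% lower and 29.5% in either direction, and the medians were 0.90 and -0.09. In that comparison 2 members, Mx1 and Mx2, had groups without overlap, as 3.09% of tested genes did in this direction. The comparisons share the fusion protein libraries, so they are not independent. Without fusion protein replicates 1 and 2 together, an omission chosen after seeing the data, 2 members were called against vehicle (Mx1 and Mx2) and 3 against the combination (Iigp1, Mx1 and Mx2). Then Igtp differed from vehicle by 0.50 (adjusted p = 0.0730) and Irgm1 and Irgm2 by 0.27 and 0.31.

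**Figure D3:**
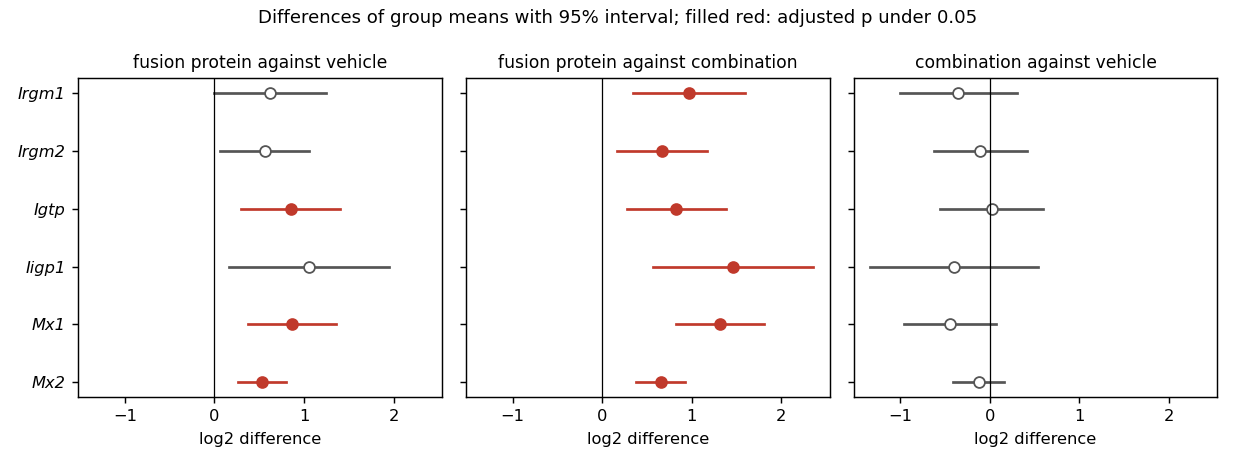
Log2 difference of group means of each member with its 95% interval, for the fusion protein against vehicle, the fusion protein against the combination, and the combination against vehicle. Filled red points passed an adjusted p of 0.05: 3 of 6, 6 of 6 and 0 of 6.

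Of the 11 omissions of a library, Irgm1 and Igtp kept the call against the combination in 7 and lost it without combination replicate 2, 3, 4 or 5, and Irgm2 kept it in 2, those of fusion protein replicate 5 and combination replicate 1. With GC and length trends taken out, Igtp (0.78, adjusted p = 0.0533) and Irgm2 (0.64, adjusted p = 0.0722) did not pass against the combination. The calls against the combination rested in part on libraries of different label numbers. Among the libraries numbered 12 to 19, fusion protein replicates 5 and 6 had Irgm1 at 413 and 424, within the combination range of 223 to 551. Irgm2 (579 and 644, against 354 to 793) and Igtp (739 and 827, against 483 to 898) lay within the combination range too. Iigp1 had 394 and 573, against 108 to 519. In the fit of these libraries alone the 4 IRG genes differed by 0.34 to 0.95 with adjusted p from 0.107 to 0.293. With the label number as a covariate in all 16 libraries, Mx1 and Mx2 still passed against the combination (0.91, adjusted p = 0.0158, and 0.37, adjusted p = 0.0302) and 0 of 4 IRG genes did. In the same model all 6 members passed against vehicle, with Irgm1 at 0.73, Irgm2 at 0.63 and Iigp1 at 1.18 (adjusted p = 0.0244, 0.0460 and 0.0357).

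The combination did not move the members detectably. Of the 6, 0 rose and 0 fell against vehicle at an adjusted p of 0.05, and 0 had an unadjusted p under 0.05, while 24.2% of all tested genes were called higher, 12.3% lower and 36.5% in either direction. The differences ran from -0.44 ± 0.24 for Mx1 (95% interval -0.96 to 0.07) to 0.02 ± 0.27 for Igtp (-0.55 to 0.60). That of Iigp1 was -0.40 ± 0.43, with an interval of -1.34 to 0.53, so changes of either sign of this size remain possible. Without vehicle replicate 5, the vehicle library with a late label number and the lowest Irgm1, Irgm2, Igtp, Iigp1, Mx1 and Mx2 of its group, Mx1 passed at -0.61 (adjusted p = 0.0473). With the label number as a covariate, 5 of the 6 differences had the opposite sign, at 0.034 to 0.34, and 0 of 6 passed.

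The IRG genes and the Mx genes each rose and fell together from library to library. Over the 16 libraries, which share their group differences, Pearson's r between the 4 IRG genes was 0.92 to 0.95, and r between Mx1 and Mx2 was 0.97. Between an IRG and an Mx gene r was 0.68 to 0.83. On deviations from group means, the corresponding ranges were 0.88 to 0.96 within the IRG genes, 0.94 between the Mx genes and 0.40 to 0.69 across. Fusion protein replicate 2 had the highest mean deviation of the IRG genes from the vehicle mean (1.60) but only 0.64 for the Mx genes. Fusion protein replicates 3 and 4 had 0.52 and 0.56 for the IRG genes and 0.88 and 0.78 for the Mx genes. Combination replicate 1 was high in the IRG genes (0.54) and low in the Mx genes (-0.20), and vehicle replicate 4 the reverse (0.06 and 0.67).

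**Figure D4:**
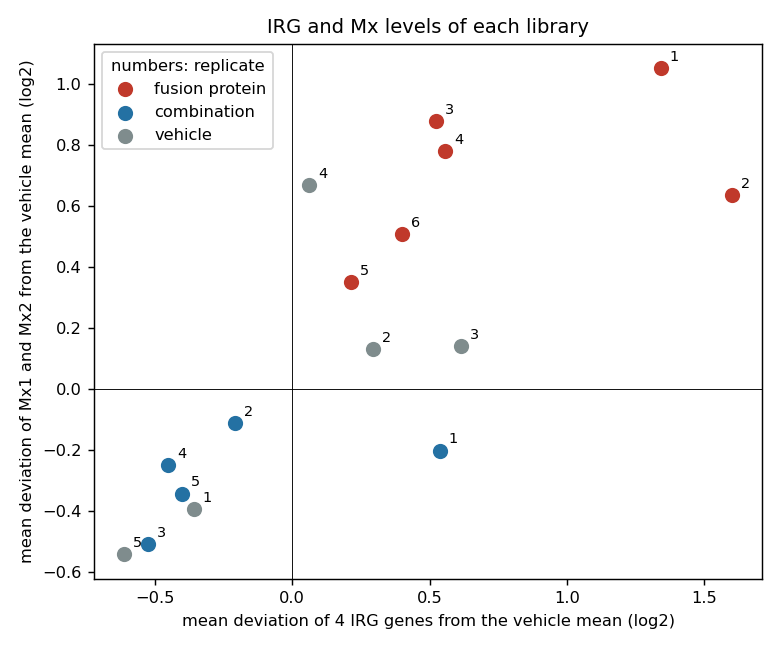
Mean deviation of Mx1 and Mx2 from the vehicle mean (log2, vertical) against that of the 4 IRG genes (horizontal), 1 point per library, with replicate numbers. All 6 fusion protein libraries are positive on both axes, from 0.22 to 1.60 for the IRG genes and from 0.35 to 1.05 for the Mx genes, and combination replicate 1 and vehicle replicate 4 lie off the common direction.

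Genes most like each member in level over the 16 libraries were named by Pearson's r over the values, as a description. For Irgm1 they were Ifi47, another IRG gene (r = 0.96), the guanylate-binding protein Gbp7 (0.96) and Gm4951 (0.95), and for Igtp F830016B08Rik (0.95), Ifi47 (0.95) and the transcription factor Irf1 (0.94). Irgm2 was close to Tgtp2 (0.95) and Gm12250 (0.93), and Iigp1 to Gm12250 (0.97), Gm4951 (0.94) and the checkpoint ligand Cd274 (0.94). Mx1 was closest to Ifit3 (0.94), Cxcl10 (0.92) and Ifit1 (0.92), and Mx2 to the helicase-like sensor Ddx60 (0.96), Ifit3 (0.96) and the antiviral enzyme Rsad2 (0.95). Ifit1 encodes a protein that binds viral RNA, and Cxcl10 is a chemokine.

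Several other IRG genes also rose with the fusion protein. Of 13 listed, all were in the table, 7 were tested and 6 were below the filter on low values. Ifi47 was not on this list and is not in its counts. It rose by 0.91 ± 0.31 against vehicle (adjusted p = 0.0439) and by 1.20 ± 0.31 against the combination (adjusted p = 0.0144). Against vehicle 4 of the 7 rose, 1 fell and 2 did not pass, with a median of 0.49, and against the combination 5 rose, 0 fell and 2 did not pass, with a median of 0.54. The shares over all tested genes were 12% higher and 13.7% lower against vehicle, and 7.35% higher and 22.2% lower against the combination. Tgtp1, an effector, rose by 0.72 ± 0.12 against vehicle (adjusted p = 0.000295) and by 0.54 ± 0.12 against the combination (adjusted p = 0.00605). Its scaled values were 41 to 103 in fusion protein, 16 to 55 (median 20) in combination and 8 to 25 in vehicle libraries. The filter level was 31.8, so Tgtp1 passed the filter through the fusion protein group. Tgtp2, its near-identical neighbour whose reads may be split with it, differed by 0.49 ± 0.25 and 0.53 ± 0.25 without passing. F830016B08Rik rose by 0.68 ± 0.15 against vehicle and Gm12250 by 0.76 ± 0.23. Gm12250 had log2 means of 7.095 in vehicle and 6.81 in combination libraries, against a filter at 6.99. It too passed the filter only with its fusion protein values, and it and Tgtp1 are among the genes counted as risen. Irgq, a divergent family member without known interferon induction, fell by 0.37 ± 0.09 against vehicle (adjusted p = 0.00555) and by 0.25 ± 0.09 with the combination against vehicle (adjusted p = 0.0415). Of the guanylate-binding proteins, the partner GTPases on parasite vacuoles, 4 of 6 tested rose against vehicle and 6 of 6 against the combination.

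Several transcription factors of the chain that carries the interferon signal rose with the fusion protein. Of 23 tested members of the receptor, JAK, STAT and IRF list, 5 rose, 1 fell and 17 did not pass with the fusion protein against vehicle (median 0.16), and 9 rose, 1 fell and 13 did not pass against the combination (median 0.13). Among all tested genes, 12% rose and 13.7% fell against vehicle, and 7.35% rose and 22.2% fell against the combination. Irf7, which amplifies type I interferon, rose by 1.65 ± 0.12 against vehicle, and Usp18, a feedback protease, by 1.21 ± 0.14. Irf9 rose by 0.47 ± 0.11 against vehicle (adjusted p = 0.00535) and by 0.73 ± 0.11 against the combination (adjusted p = 0.000892). Stat2 rose by 0.37 ± 0.10 against the combination (adjusted p = 0.0159) and differed by 0.18 ± 0.10 from vehicle (adjusted p = 0.197). Irf1 and Irf8 rose by 0.36 ± 0.13 and 0.44 ± 0.13 against the combination and differed by 0.30 ± 0.13 and 0.21 ± 0.13 from vehicle without passing. Of the receptor chains, Ifngr1 rose by 0.37 ± 0.06 against vehicle (adjusted p = 0.00044), while Ifngr2, Ifnar1 and Ifnar2 differed by 0.00, 0.09 and 0.08. The kinase Tyk2 was the member that fell (-0.24 ± 0.07, adjusted p = 0.0136). Both treatments shared these 2 shifts in scaled values. Ifngr1 was 846 to 1119 in fusion protein, 771 to 897 in combination and 682 to 728 in vehicle libraries. Tyk2 was 172 to 239, 172 to 217 and 261 to 320 in the same groups. With the combination against vehicle 2 of the 23 rose, 1 fell and 20 did not pass, where 24.2% of all tested genes rose and 12.3% fell.

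**Figure D5:**
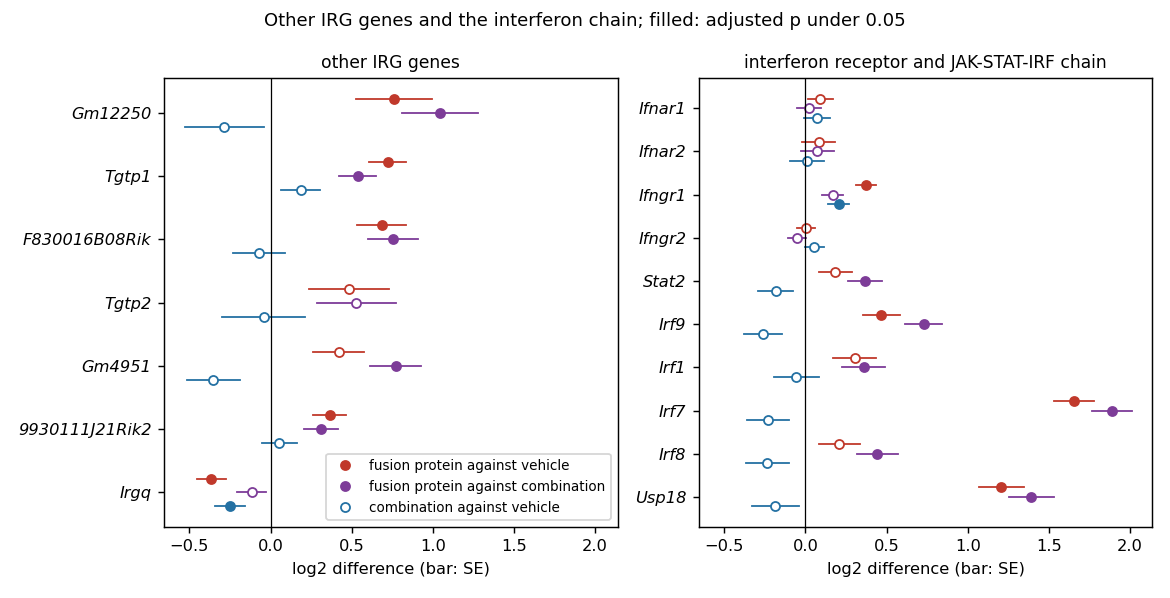
Log2 differences (points, with SE) of the tested other IRG genes and of 10 genes of the interferon chain in each comparison; filled points passed an adjusted p of 0.05. Tgtp1, Gm12250 and F830016B08Rik are filled in both fusion protein comparisons, Irgq lies below 0, and Irf7 and Usp18 lie furthest to the right.

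Interferon mRNA itself was at the edge of detection. Of 20 listed ligands 16 were in the table and 0 passed the filter, so none was tested. Ifng, which encodes interferon-γ, had scaled values of 3 to 6 in the 6 fusion protein libraries and stood at 1, the value of an undetected gene, in all 5 combination and all 5 vehicle libraries. Ifnb1 stood at 1 in all 16 libraries, and the other 14 ligands were at 1 or 2.

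Sums of T and NK cell and of macrophage markers were higher in every fusion protein library than in any vehicle library. They overlapped those of the combination, and sums of neutrophil and B cell markers overlapped between all groups. The summed scaled value of 16 T and NK cell markers, cells that make interferon-γ, was 283 to 676 in fusion protein, 175 to 295 in combination and 151 to 210 in vehicle libraries. Only Lck and Gzma of this list passed the filter, and both were higher with the fusion protein than in vehicle (0.42 ± 0.09 and 1.08 ± 0.11). Gzma had scaled values of 48 to 145 in fusion protein, 22 to 35 in combination and 5 to 14 in vehicle libraries. The filter level was 31.8, so Gzma passed it through the fusion protein group, and its rise is no separate evidence for the list. The sum also holds genes below the filter, which differed among themselves. Gzmb had 47 to 105 in fusion protein and 3 to 7 in vehicle libraries. In the same groups Cd4 (15 to 39 and 15 to 25), Cd2 (17 to 27 and 8 to 29) and Klrb1c (5 to 42 and 12 to 27) overlapped. The sum of 20 macrophage markers was 10360 to 18322 in fusion protein, 9222 to 11073 in combination and 6901 to 9564 in vehicle libraries, with fusion protein replicate 1 highest. With the fusion protein 11 of 20 rose, 1 fell and 8 did not pass against vehicle, and 8 rose, 3 fell and 9 did not pass against the combination. The sum of 13 neutrophil markers was 2826 to 11066, 3499 to 5563 and 2172 to 5712 in the same groups, and of 11 tested 2 rose, 1 fell and 8 did not pass against vehicle. The sum of 8 B cell markers was 863 to 1488, 1072 to 1437 and 1210 to 1846, and of 6 tested 0 rose, 1 fell and 5 did not pass against vehicle. Beside these counts, 12% of all tested genes rose and 13.7% fell with the fusion protein against vehicle. Against the combination the shares were 7.35% and 22.2%. Fusion protein replicate 2, the library with the highest mean of the IRG genes, had the lowest sum of its group for T and NK cells (283), macrophages (10360), neutrophils (2826) and B cells (863). In no group was a marker of these 4 lists undetected in all libraries, and the part of these cells in the results was not tested.

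IRG regulators act together with the ATG8 conjugation machinery of autophagy. Of 20 tested genes of that list, 7 rose, 1 fell and 12 did not pass with the fusion protein against vehicle (median 0.17), and 0 rose, 4 fell and 16 did not pass against the combination (median -0.13). Atg5 rose by 0.31 ± 0.05 against vehicle and the kinase Ulk1 fell by 0.44 ± 0.06. With the combination against vehicle 12 of the list rose, 2 fell and 6 did not pass. Over all tested genes 24.2% were higher and 12.3% lower in that comparison. The shares for the fusion protein were 12% higher and 13.7% lower against vehicle, and 7.35% higher and 22.2% lower against the combination. Of 14 dynamin-related GTPases other than Mx, 1 rose, 3 fell and 10 did not pass with the fusion protein against vehicle (median -0.02), and 1 rose, 7 fell and 6 did not pass against the combination (median -0.19). With the combination against vehicle 5 of these 14 rose, 3 fell and 6 did not pass. Dnm1, the dynamin of nerve terminals, fell by 0.51 ± 0.10 with the fusion protein against vehicle. Its scaled values were 4572 to 6219 in fusion protein, 4384 to 6115 in combination and 6199 to 8899 in vehicle libraries.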

How the data were processed

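Per the submitters' processing notes, reads were handled with FastQC, STAR, HTSeq and DESeq2 on build GRCm38; versions are not given in the sources used here. The authors deposited 1 table of 36722 genes in 16 libraries on a log2 scale after variance stabilisation. A transform with a single parameter, set by the 60 lowest distinct values, turned 100% of them into whole numbers within 0.01. These scaled values are not counts, and the depth and its precision are unknown. The GC content column is in percent per the file headers.

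Genes with a mean of at least 1 above the lowest value (log2 6.99, scaled 31.8) were tested, 13385 in all. One limma 3.58.1 model of all libraries (R 4.3.3; trend and robust, two-sided, Benjamini-Hochberg, threshold 0.05) gave the 3 comparisons. It was tested on simulated data. Exonic lengths and coordinates came from GENCODE M21, start-site sequence from RefSeq (Python 3.11.15, Biopython 1.88). P-values measure the spread between samples, which may be technical.

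The members and lists were chosen with earlier results of these data known. All members are named, with up to 5 members per list with the lowest p and a panel of interferon chain genes. For likeness, the 3 genes with the highest r are named. One gene that these rules name is not reported here. Alternatives were other filters, scalings, variance models and sample sets, a replicate block, the label number, removal of GC and length trends, and the omission of each library.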

Additional observations from a re-analysis of the deposited data

Results flagged for a closer look

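In each group, the highest and the lowest library of each member were compared with the rest by Dixon's criterion, in 18 sets of values. Chance flags about 1 in 20 such sets, and 2 were flagged here, both for combination replicate 1. Irgm2 stood at a log2 value of 9.839 there (scaled value 793, against 354 to 414 in the other 4 combination libraries), a gap of 0.817 of the range against a critical 0.71. Igtp stood at 9.996 (scaled value 898, against 483 to 529), a gap of 0.859 of the range. The Mx genes of that library lay within the range of the other combination libraries, at 41 for Mx1 and 89 for Mx2. Without it, Irgm2 and Igtp differed from the combination by 0.83 and 0.97 with the fusion protein.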

How the results depend on the processing

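Mx1 and Mx2 against the combination kept direction and call under every alternative in which they were tested. Of 420 member values under alternatives, 348 kept their direction and side of the threshold, 43 lost a call, 9 gained one and 20 had the other sign. The members called with the fusion protein against vehicle were 2 to 4 over the omissions of a library. They were 1 of 4 tested under the stricter filter, which leaves out the Mx genes, 1 with label numbers 1 to 8 only, 6 with the late label number and 5 with trend removal in addition. Against the combination the number was 3 to 6 over the omissions, 3 without fusion protein replicates 1 and 2, and 2 with label numbers 12 to 19 only and with the late label as a covariate, trends removed or not. For the combination against vehicle it was 0 to 1 over the omissions. The cause of these shifts was not tested, apart from the smaller numbers of samples and genes named.

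All sign changes were in the combination against vehicle. With the late label number Irgm1, Irgm2, Iigp1, Mx1 and Mx2 differed by 0.34, 0.29, 0.31, 0.034 and 0.21, with label numbers 12 to 19 only (1 vehicle library, assumed to vary like the others) by 0.28, 0.30, 0.47, 0.23 and 0.29, and with trend removal in addition to the label number Irgm1, Irgm2, Iigp1 and Mx2 by 0.32, 0.29, 0.087 and 0.13. Igtp was at -0.087 with trends removed. Over the omissions Igtp ran from -0.12 to 0.16, below 0 without combination replicate 1 or vehicle replicate 1, 4 or 5, and Irgm2 from -0.27 to 0.062, above 0 without vehicle replicate 3.

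Of all genes, the fusion protein against vehicle called 2163 with label numbers 1 to 8 only and 247 with 12 to 19 only, and 2543 to 3659 over the omissions. The combination against vehicle called 1747 with trend removal and the label number together, 764 with 12 to 19 only, and 4033 to 5369 over the omissions. The fusion protein against the combination called 984 higher and 2966 lower, 975 and 1388 (2363 in all) with quantile normalization, 2559 with trends removed, 1384 with the label number in addition, and 1999 (without combination replicate 2) to 5247 (without combination replicate 1) over the omissions, with 2496 without combination replicate 5 and 2563 without fusion protein replicate 4. Replicate numbers did not pair the samples throughout. Same-numbered deviations correlated at -0.20 to 0.46 for the fusion protein against vehicle, and 3 of 10 samples correlated best with their own number. For the combination against vehicle these were -0.15 to 0.60 and 5 of 10. For the fusion protein against the combination they were -0.15 to 0.45 and 2 of 10. With a replicate block, 4 members were called with the fusion protein against vehicle (Irgm1 at 0.74, adjusted p = 0.0489) and 3216 genes.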

Other observations

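The neighbourhood of the members was described as well. Within 100 kb of the 4 loci, 29 other genes of the table were annotated and 12 were tested. With the fusion protein against vehicle 6 of the 12 were called, 5 higher and 1 lower, where 25.8% of all tested genes were called and 12% were higher. Of the 5, 2 are IRG genes themselves, F830016B08Rik beside Iigp1 (0.68 ± 0.15) and Gm12250 beside Igtp (0.76 ± 0.23), and the other 3 were Rack1 (0.30 ± 0.09), Mrpl22 (0.27 ± 0.05) and Cnot8 (0.18 ± 0.07). Gm12250 passed the filter only with its fusion protein values, so its rise is no separate evidence for the neighbourhood. Bace2, the tested neighbour of the Mx genes, differed by -0.01 ± 0.07 from vehicle. On deviations from group means over 16 libraries, Mx1 was most like Snapc5 (r = 0.89), St6galnac3 (0.86) and Ifi203 (0.85), and Mx2 was most like Ifit3 (0.92), Tug1 (0.90) and Rsad2 (0.90).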
